A study of Mus musculus with 4 samples.

Results

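Pde1c, Pde4a, Adrbk2, Calm2 and Calm3 encode proteins that end the response of an olfactory sensory neuron to an odour: 2 phosphodiesterases, a receptor kinase and 2 calmodulins. They were taken by symbol from the deposited table of sorted mature olfactory sensory neurons, where each of the 5 has 1 locus among 28168. Per the labels, 4 mouse libraries of polyadenylated RNA from olfactory epithelium were sequenced, 2 of the line Nd1, in which genomically encoded dsRNA is expressed, and 2 controls. Both Nd1 libraries, from mice 212 and 87 days old, carried Nd1+/- together with OMP-IRES-tTA+/-. The control library of 212 days carried Nd1+/- but was OMP-IRES-tTA-/-, and the control library of 87 days was Nd1-/- with OMP-IRES-tTA+/-. All 4 also carried OMP-IRES-GFP+/-. The controls thus differ from each other in genotype as well as age. The tTA and GFP alleles stand at Omp, a gene of mature olfactory neurons. At that locus the groups thus differ only by the tTA allele, which the control library of 212 days lacked. The table gives 1 pooled FPKM value per group (fragments scaled by transcript length and library size, computed by the authors), so no value per library, spread between libraries or depth can be given.

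An odorant receptor signals through a G protein to adenylate cyclase, and the cyclic AMP that is made opens a cation channel in the cilia. Phosphodiesterases break cyclic AMP down, G protein-coupled receptor kinases phosphorylate active receptors so that arrestins can bind them, and calcium-loaded calmodulin closes the channel and stimulates the phosphodiesterase Pde1c. In olfactory neurons Pde1c is known as the ciliary enzyme and Pde4a as one found outside the cilia.

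Transcripts of both phosphodiesterases and of the receptor kinase were lower in the sorted cells of Nd1 than in those of the controls. Neither Calm2 nor Calm3, which encode calmodulin, passed the authors' test. By the authors' deposited table, with Cuffdiff q under 0.05, 3 of the 5 genes fell and 0 rose, and the counts were also 3 and 0 at an unadjusted p under 0.05. The q threshold is one that 34.4% of all 14841 tested loci passed (19.2% lower and 15.1% higher). The order of levels was the same in both groups, from Calm2, the highest in FPKM, through Calm3, Pde4a and Pde1c to Adrbk2. Without values per library, neighbours in that order could not be compared against their spread. In RNA from bulk sorted cells, fewer cells of a type and less RNA per cell cannot be told apart.

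**Figure D1:**
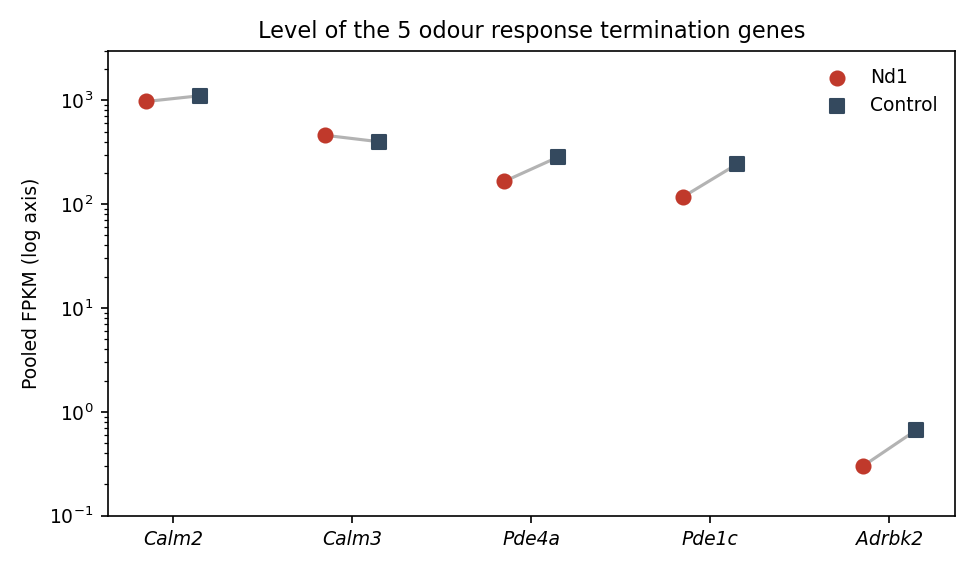
Pooled FPKM (log axis) of the 5 genes in Nd1 (circles) and Control (squares), 1 value per group from the authors' table and therefore without error bars. Pde4a, Pde1c and Adrbk2 lie lower in Nd1, while Calm2 (974 FPKM in Nd1 and 1107 FPKM in Control) and Calm3 (460 FPKM in Nd1 and 399 FPKM in Control) lie close together.

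Calm2 and Calm3 are shown first as sequences because their product is the same protein, so their coding parts differ only by silent changes. The untranslated parts of the transcripts were not compared. The lines give the first 90 coding bases (30 codons), spliced, of the GENCODE M21 transcripts on GRCm38, with capitals at the 15 bases where the genes differ. Calm2 lies on the minus strand of chromosome 17 (these bases span chr17:87435879-87446795) and Calm3 on the minus strand of chromosome 7 (chr7:16917673-16923843).
Calm2: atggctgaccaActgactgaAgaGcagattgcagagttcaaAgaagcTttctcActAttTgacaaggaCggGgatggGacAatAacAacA
Calm3: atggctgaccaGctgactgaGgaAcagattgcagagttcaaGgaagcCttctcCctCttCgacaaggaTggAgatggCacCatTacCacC
Over the 447 coding bases Calm2 and Calm3 were identical at 82.6%, and 74 of the 78 differences fell at the third base of a codon. The 149 encoded residues were identical between them (100%), and the longest identical coding run was 17 bases. How the authors assigned fragments that match several loci is not given in the sources used here.

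Pde1c, the calcium- and calmodulin-stimulated phosphodiesterase (mm9 chromosome 6, 56019798 to 56319628), stood at 118 FPKM in Nd1 and 243 FPKM in Control in the authors' deposited table. That is a log2 fold change of -1.04, or 51.4% less in Nd1, with p and q both listed as 0. The table's test statistic is not defined in the sources used here. Its p-values are the two-sided normal p of that statistic in 100% of the tested loci compared (within 1%), and its sign is opposite to that of the log2 fold change in 100% of them. If the size of the statistic is read as the log ratio over its standard error, an assumption on which every interval given here rests, the implied standard error was 0.11 and the 95% interval ran from -1.27 to -0.82 on the log2 scale. This error comes from the authors' model and not from a spread measured here. Pde4a, a cyclic AMP-specific phosphodiesterase (mm9 chromosome 9, 20970158 to 21017692), stood at 166 FPKM in Nd1 and 284 FPKM in Control in the authors' deposited table. Its log2 fold change was -0.78 (q = 1.74e-13), with an implied interval from -0.97 to -0.58. The intervals of Pde1c and Pde4a overlap, and the difference between their changes was not tested. The level of Pde1c was 0.712 of that of Pde4a in Nd1 and 0.856 of it in Control. Among all tested loci above 0 in both groups, 9.98% had a lower log2 ratio than Pde1c and 13.0% a lower one than Pde4a.

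**Figure D2:**
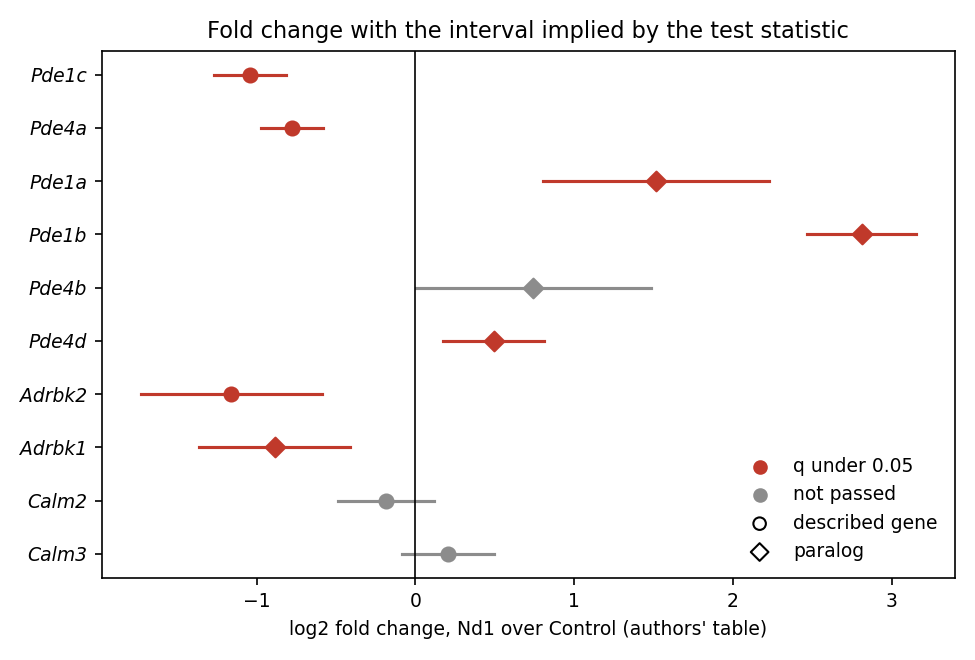
Log2 fold change of Nd1 over Control in the authors' table for the 5 genes (circles) and the paralogs taken as closest to them (diamonds). Lines give the 95% interval implied by the authors' test statistic. Red marks q under 0.05. The intervals of Pde1c, Pde4a, Adrbk2 and Adrbk1 lie below 0, those of Pde1a, Pde1b and Pde4d above 0 (as does that of Pde4b, narrowly, though its q was 0.12), and those of Calm2 and Calm3 include 0.

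Of the 4 paralogs taken as closest to the 2 phosphodiesterases 3 rose, beside 15.1% of all tested loci called higher. Pde1b, a second calmodulin-stimulated phosphodiesterase, rose to 40.9 FPKM in Nd1, against 5.84 FPKM in Control (log2 fold change 2.81, q listed as 0, in the authors' deposited table). Pde1a, the third gene of that subfamily, rose to 1.298 FPKM in Nd1, against 0.454 FPKM in Control (q = 0.000172). Within the Pde1 subfamily, Pde1c thus made up 73.7% of the summed FPKM in Nd1 and 97.5% in Control, and Pde1b made up 25.5% in Nd1 and 2.34% in Control. In the Pde4 subfamily, Pde4d rose to 6.48 FPKM in Nd1, against 4.61 FPKM in Control (q = 0.00952), whereas Pde4b, at 0.409 FPKM in Nd1 and 0.244 FPKM in Control, did not pass (q = 0.12). Both values stand in the authors' deposited table. Pde4c, of the same subfamily but not counted among the 4 paralogs, rose to 3.24 FPKM in Nd1, against 0.857 FPKM in Control. Its log2 fold change was 1.92, with q listed as 0 in the authors' deposited table. Pde4a remained 94.2% of the summed FPKM of the 4 Pde4 genes in Nd1, against 98.0% in Control.

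Over the 21 catalytic cyclic nucleotide phosphodiesterase genes, 17 were tested. The authors' deposited table calls 4 of these lower and 9 higher, beside 19.2% and 15.1% of all tested loci, and 4 missed the threshold. Their median log2 ratio was 0.74, against -0.068 over all tested loci. Over the 13 genes that averaged 1 FPKM or more the median was 0.49. Of these 13, 3 fell and 7 rose, where 34.2% of all tested loci of that level were called in either direction. The most abundant members were those that fell, so the summed FPKM of the family was lower all the same, at 451 in Nd1 and 726 in Control. Besides Pde1c and Pde4a the falls were Pde7b, a cyclic AMP-specific enzyme (82.4 FPKM in Nd1 and 159 FPKM in Control), and Pde10a, an enzyme of both cyclic nucleotides (0.378 FPKM in Nd1 and 1.19 FPKM in Control). The Nd1 minus Control difference in FPKM summed to -321 over the 4 that fell and to 51.0 over the 9 that rose. The largest rises after Pde1b were those of Pde2a, which is stimulated by cyclic GMP (6.90 FPKM in Nd1 and 1.09 FPKM in Control), and Pde4c (3.24 FPKM in Nd1 and 0.857 FPKM in Control). Pde2a is also known as a marker of a separate olfactory neuron type that signals through cyclic GMP.

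**Figure D3:**
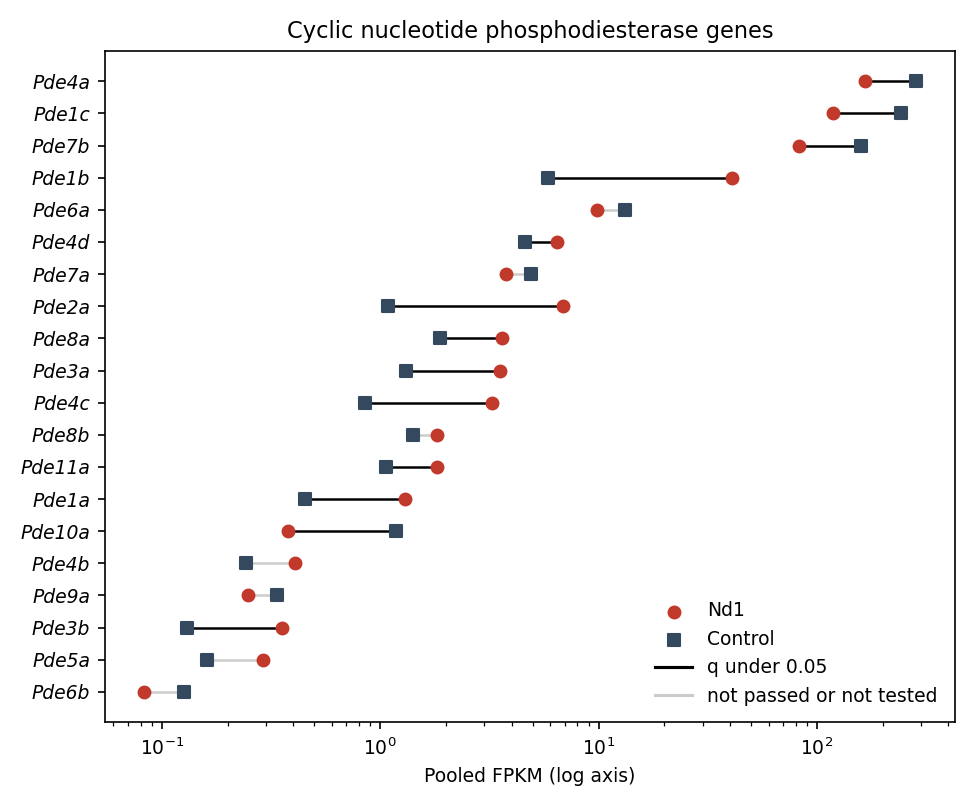
Pooled FPKM (log axis) of 20 phosphodiesterase genes in Nd1 (circles) and Control (squares), ordered by mean level, with a black line where the authors' q was under 0.05. Pde6c, listed at 0 in Control, is left out. The 3 genes of highest level lie lower in Nd1, and Pde1b (40.9 FPKM in Nd1 and 5.84 FPKM in Control) lies higher.

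**Figure D4:**
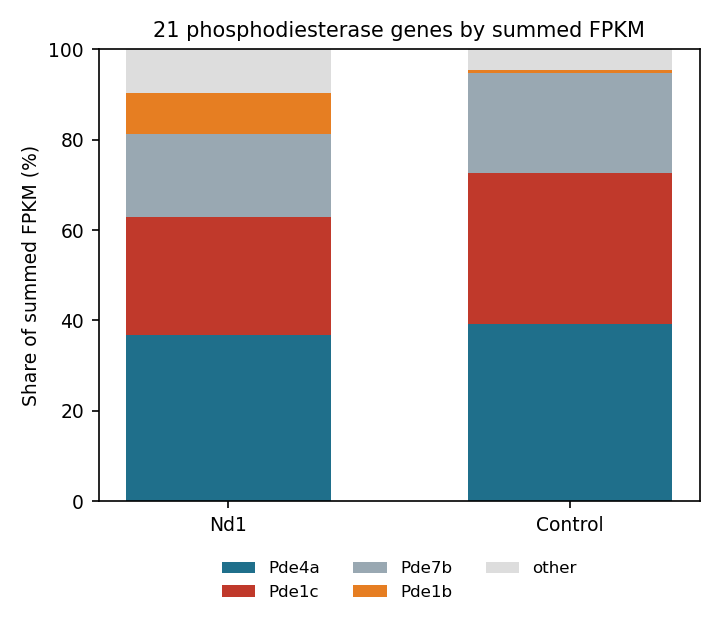
Share of the summed pooled FPKM (%) of the 21 phosphodiesterase genes held by Pde4a, Pde1c, Pde7b, Pde1b and all others, in Nd1 (left bar) and Control (right bar). Pde1b holds 9.07% of the sum in Nd1 and 0.804% in Control, and Pde1c holds 26.2% in Nd1 and 33.5% in Control.

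Adrbk2 encodes G protein-coupled receptor kinase 3, named Grk3 in later annotation, which is known to phosphorylate odorant receptors in cilia after stimulation (mm9 chromosome 5, 113339498 to 113444534). It was the only one of the 5 genes below 1 FPKM, at 0.298 FPKM in Nd1 and 0.667 FPKM in Control, per the authors' deposited table, which lists its log2 fold change as -1.16 (q = 0.000343). The implied interval was wide, from -1.73 to -0.59. With a pseudocount of 1 FPKM added to both groups its log2 ratio was -0.36, and a minimum mean of 1 FPKM leaves the gene out. Its locus ranked 14647 by level in Nd1 and 13665 in Control among the 28168 loci. Because the depth is unknown, the number of fragments behind these values cannot be given. Adrbk1, the closely related kinase 2, also fell, to 0.916 FPKM in Nd1, against 1.70 FPKM in Control (q = 0.00117).

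Grk4, Grk5 and Grk6 stood higher than Adrbk2 in both groups, and Grk1 stood lower, at 0.0485 FPKM in Nd1 and 0.0621 FPKM in Control. Grk6 had 5.97 FPKM in Nd1 and 5.36 FPKM in Control and did not pass (q = 0.526), and Grk5 fell to 3.48 FPKM in Nd1, against 6.47 FPKM in Control (q = 2.79e-05), in the authors' deposited table. Adrbk2 made up 2.23% of the summed FPKM of the 6 receptor kinases in Nd1 and 4.07% in Control. Of 8 tested kinases and arrestins 4 fell and 1 rose, beside 19.2% and 15.1% of all tested loci. The median log2 ratio of the 8 was -0.76. The median was 0.16, of the opposite sign, over the 5 genes of the list that averaged 1 FPKM or more. Among these 5, 2 fell and 1 rose, where 34.2% of all tested loci of that level were called in either direction. The rise was that of Arrb2, the arrestin of highest level, at 34.5 FPKM in Nd1 and 28.7 FPKM in Control (q = 0.000234). Arrb1, the remaining fall among the 8 tested genes, lay under 1 FPKM, at 0.333 FPKM in Nd1 and 0.561 FPKM in Control (q = 0.0434). Like Grk1, Grk4 and Grk6, Arrb1 is named here after its value was seen.

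Calm2 (mm9 chromosome 17, 87832741 to 87846275) stood at 974 FPKM in Nd1 and 1107 FPKM in Control, a log2 fold change of -0.18 (q = 0.397) with an implied interval from -0.49 to 0.12, from the authors' deposited table. Calm3 (mm9 chromosome 7, 17500728 to 17509381) stood at 460 FPKM in Nd1 and 399 FPKM in Control, a log2 fold change of 0.21 (q = 0.305) with an implied interval from -0.082 to 0.49. Both intervals include 0 and end within a 1.5-fold change, at 0.713-fold to 1.09-fold for Calm2 and at 0.945-fold to 1.41-fold for Calm3. After quantile normalization of the 2 groups, the sign of Calm2 flipped to a log2 ratio of 0.29. The level of Calm2 was 2.12 times that of Calm3 in Nd1 and 2.77 times that of Calm3 in Control, a pair of ratios that could not be tested. The calmodulin-like genes Calm4, Calm5 and Calml3 were listed at 0 in both groups, and Calml4 had 0.543 FPKM in Nd1 and 0.443 FPKM in Control.

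The components that start the odour response were lower in Nd1 as well. Of the 7 tested genes of odour transduction 6 fell and 0 rose by the authors' Cuffdiff q, beside 19.2% and 15.1% of all tested loci. The counts were also 6 and 0 at an unadjusted p under 0.05, and the median log2 ratio of FPKM of the 7 was -0.58. Over all 10, including 3 whose test failed, the median was -0.80, beside -1.04 for Pde1c and -0.78 for Pde4a. These differences were not tested. Adenylate cyclase Adcy3 had 496 FPKM in Nd1 and 888 FPKM in Control, and the channel subunit Cnga2 had 486 FPKM in Nd1 and 860 FPKM in Control. The other falls were those of the G protein gamma subunit Gng13 (1086 FPKM in Nd1 and 1619 FPKM in Control), the channel subunits Cnga4 (341 FPKM in Nd1 and 471 FPKM in Control) and Cngb1 (137 FPKM in Nd1 and 196 FPKM in Control), and the calcium-activated chloride channel Ano2 (152 FPKM in Nd1 and 261 FPKM in Control). The chloride transporter Slc12a2 did not pass, at 113 FPKM in Nd1 and 132 FPKM in Control. No call exists for the G protein subunits Gnal (924 FPKM in Nd1 and 1672 FPKM in Control) and Gnb1 (886 FPKM in Nd1 and 1595 FPKM in Control), nor for the exchange factor Ric8b (273 FPKM in Nd1 and 796 FPKM in Control).

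Relative to Adcy3, the level of Pde4a was 0.334 in Nd1 and 0.320 in Control, and that of Pde1c was 0.238 in Nd1 and 0.274 in Control. Calm2 and Calm3 stood higher against Adcy3 in Nd1 than in Control, at 1.96 in Nd1 and 1.25 in Control for Calm2 and at 0.927 in Nd1 and 0.449 in Control for Calm3. These ratios of pooled levels carry no error.

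Among the genes through which calmodulin and calcium act, calls were split. The counts of these lists and of those that follow stand beside 19.2% of all tested loci called lower and 15.1% called higher. Of 13 tested calmodulin-dependent kinases and calcineurin subunits the authors' deposited table calls 3 lower and 3 higher, and 7 missed the threshold, with a median log2 ratio of 0.069. Camk2d, a subunit of the calmodulin kinase that can phosphorylate Adcy3, fell to 82.4 FPKM in Nd1, against 120.5 FPKM in Control, and the upstream kinase Camkk2 fell to 9.96 FPKM in Nd1, against 17.3 FPKM in Control. Camk2g rose to 14.1 FPKM in Nd1, against 10.3 FPKM in Control. Of the small calmodulin-binding proteins, Pcp4l1 fell to 624 FPKM in Nd1, against 814 FPKM in Control, while Gap43, a growth cone protein of immature neurons, rose to 24.9 FPKM in Nd1, against 12.2 FPKM in Control. Nrgn, named here after its value was seen, rose to 0.884 FPKM in Nd1, against 0.365 FPKM in Control. Among 8 tested calcium sensors and buffers other than calmodulin, 3 fell and 2 rose. S100a5 fell to 1461 FPKM in Nd1, against 3542 FPKM in Control, and Ncald to 2.55 FPKM in Nd1, against 4.43 FPKM in Control, whereas Hpcal4 rose to 8.83 FPKM in Nd1, against 5.70 FPKM in Control, and Calb2 to 143 FPKM in Nd1, against 108 FPKM in Control.

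Calcium extrusion, which ends the channel's calcium signal, gave 4 falls and 4 rises among 10 tested exchangers and pumps in the authors' deposited table (median log2 ratio 0.14). Among the 8 genes that averaged 1 FPKM or more, 2 of which have no test result, 4 fell and 1 rose, and the median was -0.41, of the opposite sign. The falls included the sodium/calcium exchanger Slc8a1 (92.8 FPKM in Nd1 and 141 FPKM in Control) and the pump Atp2a3 of the endoplasmic reticulum (2.19 FPKM in Nd1 and 4.62 FPKM in Control). Slc24a4, the exchanger known to clear calcium from olfactory cilia and named here after its value was seen, fell to 60.9 FPKM in Nd1, against 85.4 FPKM in Control (log2 fold change -0.49, q listed as 0). The plasma membrane pump Atp2b4 rose to 16.8 FPKM in Nd1, against 10.7 FPKM in Control, and the exchanger Slc24a3 to 1.33 FPKM in Nd1, against 0.181 FPKM in Control.

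RGS proteins, which speed the shut-off of G proteins, fell in 2 and rose in 4 of 13 tested genes (median log2 ratio 0.29). Rgs3, the RGS gene of highest level, did not pass, at 137 FPKM in Nd1 and 149 FPKM in Control (q = 0.166). Rgs7 fell to 5.22 FPKM in Nd1, against 14.9 FPKM in Control, while Rgs22 rose to 16.3 FPKM in Nd1, against 2.41 FPKM in Control, Rgs9 to 11.6 FPKM in Nd1, against 5.10 FPKM in Control, and Rgs4 to 2.59 FPKM in Nd1, against 0.0943 FPKM in Control. Of 6 protein kinase A subunits, whose activity cyclic AMP releases, the authors' deposited table calls 0 lower and 2 higher. That share is near the 34.4% of all tested loci called in either direction. The rises were Prkar1a (154 FPKM in Nd1 and 113 FPKM in Control, q = 1.48e-06) and Prkacb (78.7 FPKM in Nd1 and 70.3 FPKM in Control, q = 0.0383).

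**Figure D5:**
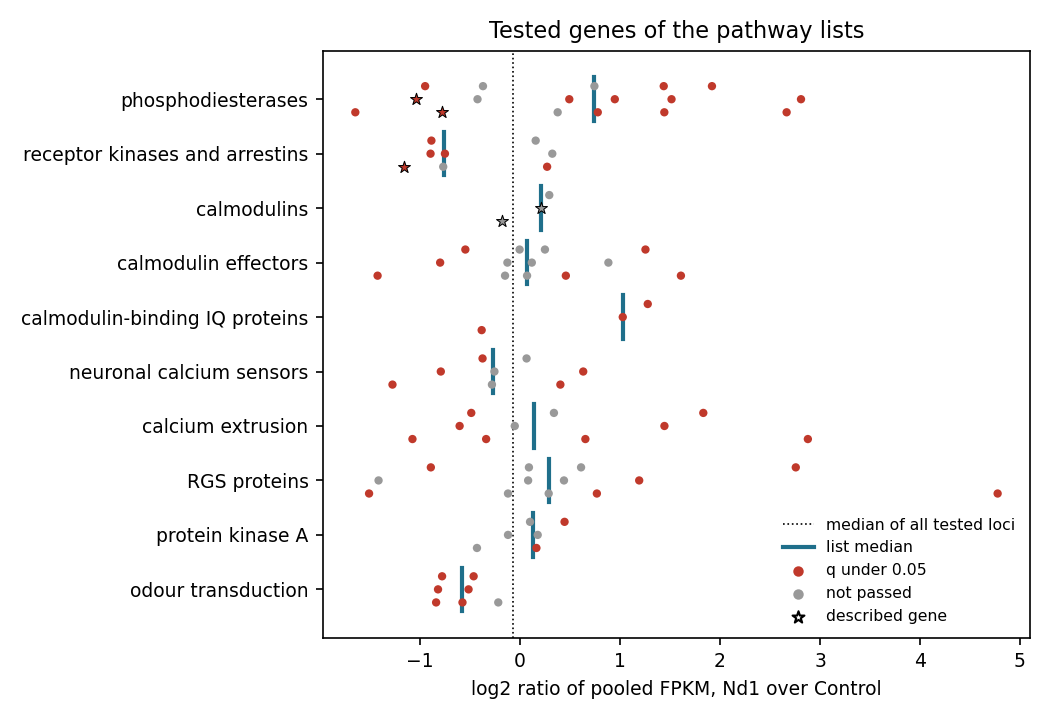
Log2 ratio of pooled FPKM, Nd1 over Control, for the tested genes of each pathway list, red where the authors' q was under 0.05. Stars mark the 5 described genes, blue bars each list's median and the dotted line the median of all tested loci (-0.068). Genes of odour transduction lie below 0, while the other lists spread to both sides.

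For each of the 5 genes, the genes of these lists with the nearest log2 ratio were sought among 68 or 69 tested candidates that reached 1 FPKM in either group. With 1 pooled value in each of 2 groups, such nearness rests on a single ratio per gene. Nearest to Pde1c were Atp2a3 (0.035 apart) and Pde7b (0.091 apart), and nearest to Pde4a were Ano2 (0.0033 apart) and Ncald (0.016 apart). Adrbk2 lay nearest to Atp2a3 (0.084 apart) and S100a5 (0.12 apart). Calm2 lay nearest to the calcineurin subunit Ppp3cc (0.033 apart) and Slc12a2 (0.035 apart), and Calm3 nearest to Prkar2b (0.030 apart) and Prkacb (0.042 apart).

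RefSeq promoter windows on GRCm38.p6, from 250 bases before to 50 after a start, were at hand for 3 of the 5 genes (Pde1c, Pde4a and Calm3, 7 windows). They were searched on both strands for the core CCCNNGGGA of the Ebf (O/E) factors, known regulators of olfactory neuron genes, and for the cyclic AMP response element TGACGTCA. Of all 32544 windows of distinct sequence, 6.60% held the Ebf core and 1.80% the response element. The response element was in none of the 7 windows, and the Ebf core in 1, that of a start of Pde4a downstream of its first one. The part of that window that holds its 2 matches is shown, in capitals, as the 150 bases from 250 to 101 before the start (plus strand, chr9:21183851-21184000), with the matches beginning 241 and 157 bases before it.
Pde4a: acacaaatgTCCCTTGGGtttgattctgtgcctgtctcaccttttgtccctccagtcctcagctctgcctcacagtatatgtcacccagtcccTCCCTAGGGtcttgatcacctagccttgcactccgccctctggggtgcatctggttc
A match of letters is a description and no evidence of binding.

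Markers of cell types moved as well, beside 19.2% of all tested loci called lower and 15.1% called higher. Of 9 tested markers of mature olfactory sensory neurons 7 fell and 0 rose, with a summed FPKM of 5225 in Nd1 and 12562 in Control, and 5 of them are also in the transduction list. Omp, the locus of the tTA and GFP alleles, is among the 7. There the groups differ in genotype only by the tTA allele, which the control library of 212 days lacked. Omp held 605 FPKM of that sum in Nd1 and 4087 FPKM in Control, a large part of the summed fall. Of 10 markers of immature neurons 8 rose and 0 fell (summed FPKM 842 in Nd1 and 451 in Control). Falls numbered 7 of 8 for neutrophils (6.95 in Nd1 and 33.6 in Control), 4 of 8 for sustentacular cells (299 in Nd1 and 348 in Control), 4 of 5 tested for basal and progenitor cells (7.65 in Nd1 and 13.9 in Control) and 1 of 3 tested for macrophages and lymphocytes (1.13 in Nd1 and 1.69 in Control). Of the last, Cd8a was listed at 0 in Nd1 and Cd3e at 0 in Control. Counts of 0 here and for protein kinase A, from the authors' Cuffdiff q, were also 0 at an unadjusted p under 0.05. The part of these cell types in the changes of the 5 genes was not tested.

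The calls of Pde1c, Pde4a and Adrbk2 also held at q under 0.01, which 27.2% of tested loci passed, and at q under 0.05 with a change of at least 1.5-fold, which 23.1% passed. Adrbk2 drops out where a mean of at least 1 FPKM is required, leaving 2 falls, against 34.2% of loci called with that minimum, with either the deposited q or one adjusted again over these loci.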

How the data were processed

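RNA of sorted neurons was sequenced in 4 libraries. The tools named are Bowtie and Cuffdiff 1.3.0 and the genome build is mm9, per the submitters' processing notes. Neither the role of each tool nor the annotation is given in the sources used here. Each group has 1 deposited value, read as FPKM because that is what Cuffdiff writes, and the authors' log2 fold change, p-value and q-value for Nd1 over Control stand beside it, per the file headers. Of 28168 loci 14841 were tested, 12711 were not and in 616 the test failed. Per-library columns used numbered 0, so no test was run and limma, planned for such values, was not used.

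The 5 genes and all gene lists were chosen with earlier results of these data known. Where a symbol had several loci, the one of highest mean FPKM stood for it, and loci that join symbols were not used. Pcp4 and Gfy are not analysed here, and 1 gene that the rule below would name is not reported here. Genes were named by a rule: the 5 genes, the paralogs taken as closest to them, and all transduction genes. The rule also names the most abundant gene of each pathway list. From each such list it further names up to 4 called genes of at least 1 FPKM in a group, by size of change. Last come the 2 list genes nearest in log2 ratio to each of the 5, which adds Pde7b. The standard error of a log2 fold change was taken as its size divided by that of the authors' statistic, and intervals are 1.96 errors wide on each side. It measures the authors' model of 2 libraries a group, which may share technical error, since no label gives the number of mice. Starts have 1 added, so loci are 1-based. Calculations used Python 3.11.15, pandas 2.3.3, numpy 2.4.6 and scipy 1.17.1. The adjustment of p-values, median scaling and quantile normalization were tested on simulated data, and the other calculations were not. Alternatives were pseudocounts of 1 and 0.1, 3 scalings, stricter calls and a minimum mean of 1 FPKM.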

Additional observations from a re-analysis of the deposited data

How the results depend on the processing

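Pde1c, Pde4a and Adrbk2 were lower in Nd1 under every pseudocount and scaling tried, and none of the 79 called genes of the lists changed direction under a scaling. An alternative is given here where it moved a log2 ratio by at least its implied standard error. Scaling to an equal sum without odorant receptors, which shifts all log2 ratios by 0.10, gave Pde4a -0.67, and quantile normalization gave Pde4a -0.68, Adrbk2 -0.85, Calm3 0.36 and Calm2 0.29, the last against -0.18 as deposited. A pseudocount of 1 gave Adrbk2 -0.36 in place of -1.16, since its levels lie under that pseudocount. The other 19 of 25 alternative log2 ratios moved less. Of the counts, a minimum mean of 1 FPKM left 2 of 4 falls among receptor kinases and arrestins, 1 of 3 rises among calmodulin effectors, 1 of 2 among calmodulin-binding proteins and 1 of 4 in calcium extrusion, by leaving out less expressed genes. At q under 0.01 the calmodulin-binding proteins gave 0 falls and 1 rise, and protein kinase A 1 rise. The calls themselves could not be recomputed under another scaling, because the table holds no value per library. No paired analysis was possible because each group is a single pooled column, and for the same reason no replicate could be left out.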

Other observations

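No locus of the table overlaps those of the 5 genes. Within 30 kb of Calm3, which did not pass, all 3 tested loci rose in the authors' deposited table, beside 15.1% of all tested loci. They are named here after their values were seen, and a link between them was not tested. Pde1c, Adrbk2 and Calm2 had no tested locus within that distance. Gng8, a G protein gamma subunit of immature olfactory neurons, had 71.7 FPKM in Nd1 and 3.11 FPKM in Control, Pnmal2 had 42.6 FPKM in Nd1 and 10.1 FPKM in Control, and Dact3 had 8.39 FPKM in Nd1 and 2.82 FPKM in Control. Around Pde4a, neither Cdc37 (55.9 FPKM in Nd1 and 61.8 FPKM in Control) nor Keap1 (15.5 FPKM in Nd1 and 16.4 FPKM in Control) passed.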
